A study of Mus musculus with 2 samples.

Results

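The ribosomal DNA (rDNA) spacer body is the long stretch of the mouse rDNA repeat that lies between the terminators, where transcription of the ribosomal RNA unit ends, and the part just before the next promoter. It was taken as the stretch between 14.6 and 42 kb of chrR, 27400 bp long, part of a sequence that the authors added to the mm10 build, whose last covered position is 45306 and which was taken here to be 1 rDNA repeat. Its members are 100 bp bins, counted on each strand, of which the spacer body holds 548 among 908 on the whole of chrR. The choice used positions only and no measured value. No sequence or annotation of chrR was used here, so the segments carry the names of the rDNA layout and no bases are printed.

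Break ends were mapped by END-seq, a method in which adapters are ligated to free DNA ends inside agarose plugs, so that each read begins at a break. The 2 libraries came from CD43- splenic B cells of young mice aged 4 to 8 weeks. The S-phase library was made from cells that were activated with anti-CD40 (1 µg/mL) and IL-4 (25 ng/mL), and the G1-phase library from quiescent cells cultured without either. Both cultures lasted 24 to 28 h. Both titles carry the prefix ATR+c, which the labels do not spell out, and the sources used here give neither the strain nor the number of animals behind a library. The depth was 21997695 reads in the S-phase library against 28933109 in the G1-phase library. There was 1 library per group, so no difference was tested, and each ratio describes these libraries only. Phase and activation changed together between the libraries, so they cannot be told apart in any difference described here as lower or higher in S phase. Ratios are S phase over G1 phase after scaling of the counts to RPM, reads per 1000000 library reads. Scaled values are shares of a library, so absolute numbers of break ends are not known. Their 95% intervals cover counting error only, and stacked reads may stem from 1 amplified molecule.

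Ribosomal RNA genes lie in tandem arrays, and the spacer between them is mostly not transcribed by RNA polymerase I. In mammals the terminators at the left end of the spacer bind the factor TTF1 and pause replication forks that run against transcription, while replication often starts within the spacer. Reads of a break that left a pair of ends run to the left on the minus strand and to the right on the plus strand, whereas a broken fork with 1 free end leaves reads on 1 strand. Reads from all copies of the repeat fall on the same positions, so break ends per copy and the number of copies cannot be told apart.

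The spacer body carried a smaller share of the break ends in the S-phase library than in the G1-phase library, on both strands and along nearly its whole length. It held 26515 reads in S phase against 40160 in G1 phase. Scaled, this was 1205 RPM (95% exact Poisson interval 1191 to 1220) in S phase against 1388 RPM (1374 to 1402) in G1 phase, which gave a ratio of 0.868 (0.855 to 0.882). The plus strand stood at 15668 and 23293 reads, a ratio of 0.885 (0.867 to 0.903). The minus strand stood at 10847 and 16867 reads, a ratio of 0.846 (0.826 to 0.867).

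The count of distinct positions gave a smaller difference in the same direction. Reads were less stacked in S phase, with 3.30 reads per covered position in the spacer body against 4.64 in G1 phase, and with 2.84 against 3.84 over the whole libraries. Taking every covered position as 1 count, 8023 in S phase against 8658 in G1 phase, and scaling to all covered positions gave a ratio of 0.901 (0.874 to 0.929). Break ends of different repeat copies at 1 position then count once, and how far this changed the ratio was not tested. With the tallest stacks of each library capped the ratio was 0.861 (0.848 to 0.875), and without the highest position of each strand 0.870 (0.856 to 0.883).

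Chromosomes 1 to 19 gave a scale for this ratio. In 2412 windows of 1 Mb the ratio had a median of 1.02, with 0.860 at the 5th percentile and 1.19 at the 95th, and 6.59% of windows lay at or below the spacer body. These windows held a median of 7839 reads in S phase against 10044 in G1 phase, fewer than the spacer body, so their counting error is larger. It is still narrow beside the spread between windows. The first 13.4 kb of chrR, with 8765 and 11438 reads, had a counting interval of 0.980 to 1.04. Per length, the spacer body stood at 44.0 RPM per kb in S phase against 50.7 in G1 phase, against a median window of 0.356 and 0.347 RPM per kb.

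**Figure D1:**
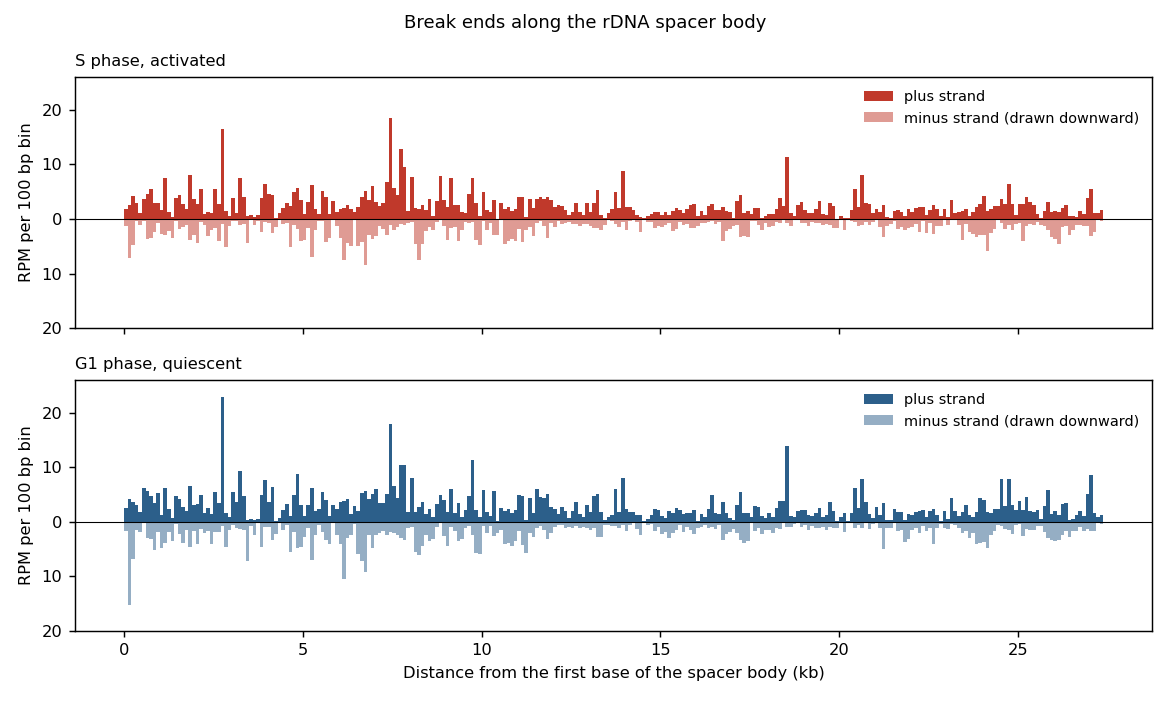
Break ends in 100 bp bins along the spacer body, as RPM, against distance from its first base in kb, with the S-phase library above and the G1-phase library below. Plus-strand bins are drawn upward and minus-strand bins downward. The same leading plus-strand bins stand out in both libraries, while the tall minus-strand bin near the left border reaches 7.14 RPM in S phase against 15.3 RPM in G1 phase.

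The spacer body differed from the rest of the repeat in that both strands were lower in S phase. Before the terminators (the first 13.4 kb, the side of the transcribed unit) the ratio was 1.01 (0.980 to 1.04), from 0.941 on the plus and 1.09 on the minus strand. In the promoter-proximal part (the last 3.31 kb) it was 0.894 (0.857 to 0.932), close to that of the spacer body, but this joined a plus strand at 0.695 (0.657 to 0.736) with a minus strand at 1.23 (1.16 to 1.31). The terminator segment (1.2 kb up to the border of the spacer body) stood at 3.61 (3.42 to 3.80), led by the plus strand at 4.87. The ratio of the spacer body divided by that of the part before the terminators was 0.862 (Wald 95% interval 0.835 to 0.889), a quantity that does not depend on the library totals.

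On the minus strand the spacer body was the only segment of these 4 with a ratio below 1. Divided by the ratio of the part before the terminators, its minus-strand ratio was 0.774 (0.738 to 0.811), and divided by that of the promoter-proximal part 0.686 (0.642 to 0.733). On the plus strand the same comparisons gave 0.941 (0.901 to 0.982) and 1.27 (1.20 to 1.35), so that the spacer body lay between these segments. Of all library reads 0.121% fell on the spacer body in S phase against 0.139% in G1 phase. Divided by the ratio of the rest of chrR, the ratio of the spacer body was 0.706 (0.688 to 0.724), and 0.895 (0.870 to 0.920) with the terminator segment left out of the rest.

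**Figure D2:**
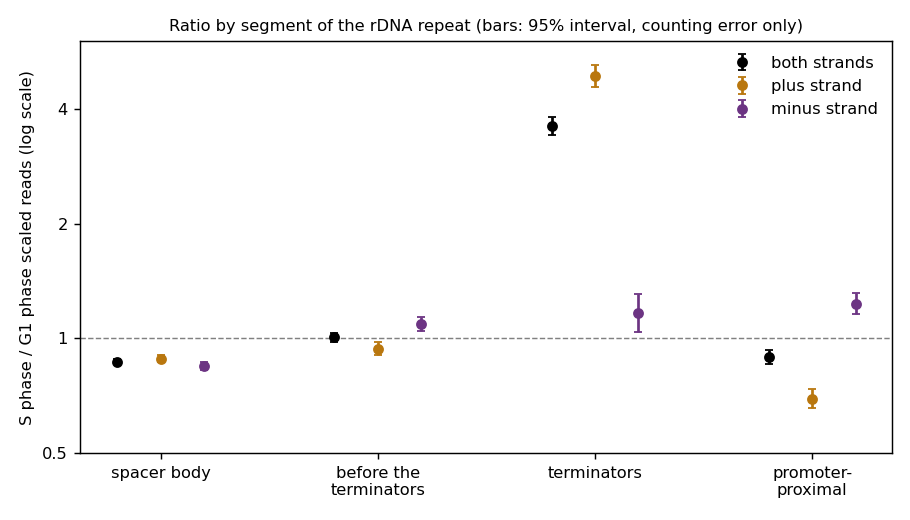
Ratio of scaled reads, S phase over G1 phase, on a log axis for the spacer body and the other segments of the repeat, for both strands together, the plus strand and the minus strand. Bars are 95% intervals for counting error. Both strands of the spacer body lie below 1, at 0.885 and 0.846, whereas the minus strand of every other segment lies above 1.

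Break ends were denser in the left part of the spacer body than in the right part in both libraries. The left part of the spacer body (up to position 28300) stood at 54.5 RPM per kb in S phase against 63.4 in G1 phase, and the right part of equal length (28301 to 42000) at 33.5 and 37.9. The densest kilobase was 21601 to 22600, at 84.0 and 91.9 RPM per kb, and the one next to the terminators stood at 57.6 and 81.0. The ratio was similar in both parts, 0.860 (0.843 to 0.877) and 0.883 (0.861 to 0.906). The strands moved differently within them: the minus strand was lower in the left part, at 0.810 (0.785 to 0.835), than in the right part, at 0.910 (0.874 to 0.946), and the plus strand stood at 0.897 and 0.865.

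In 28 consecutive segments of 1 kb, the last of which is 0.4 kb long, the ratio was below 1 in 27 and had a median of 0.871. The lowest was 17601 to 18600, with 903 reads in S phase against 1692 in G1 phase, which gave a ratio of 0.702 (0.647 to 0.761). The first segment, next to the terminators, followed with 1267 and 2343 reads, 0.711 (0.664 to 0.762). The highest was 36601 to 37600, with 682 and 889 reads, 1.01 (0.912 to 1.12). The other segments lay between these values, and taken by strand, 25 plus-strand and 25 minus-strand values were below 1.

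**Figure D3:**
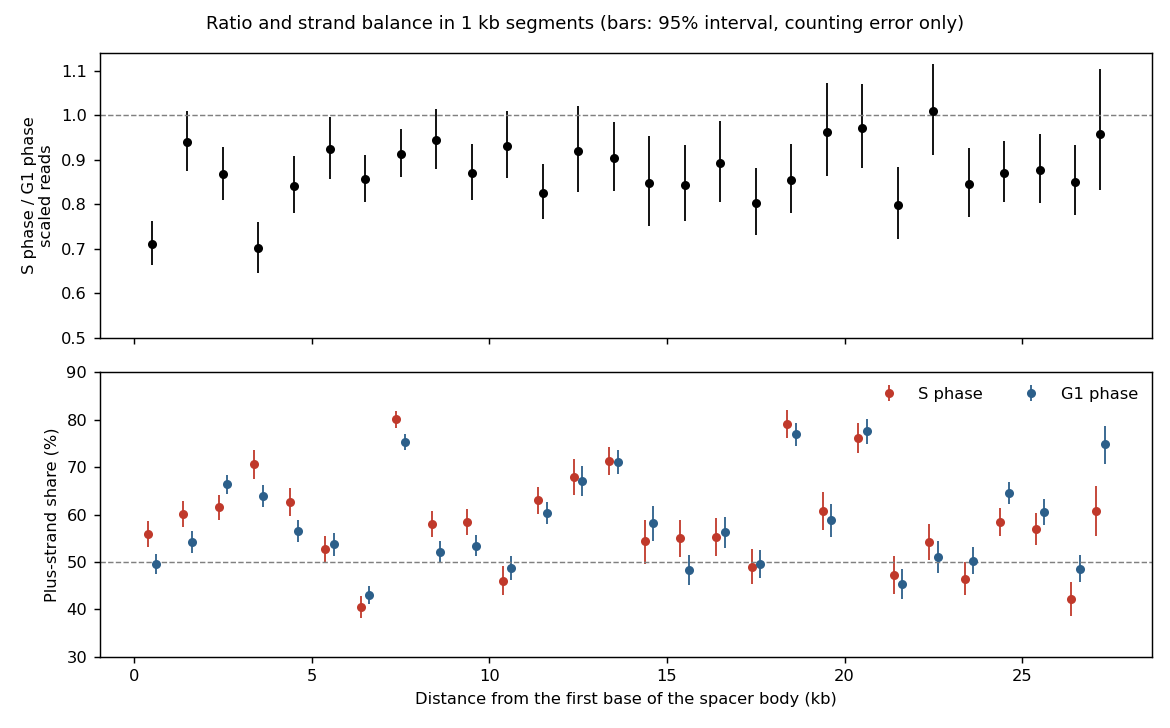
Ratio of scaled reads (upper panel) and plus-strand share in percent (lower panel) in 1 kb segments, against distance from the first base of the spacer body in kb, with 95% intervals for counting error. All segments but 1 lie below a ratio of 1, and the plus-strand shares of S phase and G1 phase move together from segment to segment.

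The strand balance of the spacer body was nearly the same in both libraries. Plus-strand reads made up 59.1% (58.5 to 59.7) in S phase against 58.0% (57.5 to 58.5) in G1 phase, a difference of 1.09 points. The difference was 2.49 points in the left part and −1.23 points in the right part, and with each position counted once it turned to −0.718 points over the whole. By comparison the share differed by 23.1 points in the terminator segment and by −14.0 points in the promoter-proximal part.

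Along the spacer body the balance itself varied far more than it differed between the libraries. The plus-strand share of 1 kb segments ran between 40.5% and 80.1% in S phase and between 43.1% and 77.6% in G1 phase. Pearson's r between the libraries over the 28 segments was 0.881 and Spearman's rho 0.878, a description of segments that share the same libraries. The segment 21601 to 22600 was the richest in plus-strand reads in S phase, at 80.1% against 75.3% in G1 phase, and 34601 to 35600 in G1 phase, with 76.2% in S phase against 77.6%. The segment 20601 to 21600 was the poorest in both, at 40.5% and 43.1%. Plus-strand reads were the majority in both libraries in 20 segments and minus-strand reads in 5, and 3 segments differed. The widest differences were −14.0 points in the short last segment, 41601 to 42000 (60.8% and 74.8%), and 6.73 points at 29601 to 30600 (55.0% and 48.3%).

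Of the 548 strand bins 1 was uncovered, the minus-strand bin 34601 to 34700, which held 0 reads in both libraries. This allows up to 0.136 RPM in S phase against 0.104 RPM in G1 phase, the level of 3 reads, and for counting error only. Reads fell on 545 bins in S phase against 547 in G1 phase. A bin held a median of 36 reads in S phase against 55 in G1 phase, and at most 407 and 662. Bin levels of the libraries went together, with Pearson's r of 0.908 and Spearman's rho of 0.882 over 548 bins, which share the underlying sequence and are not independent. The densest 54 bins of each library held 29.7% of spacer reads in S phase against 29.4% in G1 phase, and 39 bins were in both sets.

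The highest plus-strand bins, picked by the mean RPM of both libraries, were high in both, which this choice favours. The bin 17301 to 17400 had 363 reads in S phase against 662 in G1 phase, or 16.5 and 22.9 RPM, with a ratio of 0.721 (0.633 to 0.821). Its reads were spread over 57 positions in S phase against 61 in G1 phase, and its highest position held 7.71% and 5.59% of them. The bin 22001 to 22100 had 407 reads in S phase against 516 in G1 phase, and its ratio was 1.04 (0.909 to 1.18). The bin 33101 to 33200 had 248 and 400 reads, 0.815 (0.693 to 0.958). These last bins were each led by 1 position. Position 22035 held 121 reads in S phase against 187 in G1 phase, or 29.7% and 36.2% of its bin, and position 33111 held 109 and 130, or 44.0% and 32.5%. They were the highest and the next highest of all spacer positions by summed RPM.

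The other plus-strand bins among the 12 highest ran from 0.664 to 1.23 in ratio. The lowest ratio of these belonged to 24301 to 24400, with 164 and 325 reads, and the highest to 22301 to 22400, with 282 and 301 reads. The bin 22301 to 22400 and its neighbour 22401 to 22500 (208 and 302 reads, 0.906) form 1 run of plus-strand ends. Positions 22393 and 22394 inside this run were higher in S phase, with 78 and 49 reads at the first (ratio 2.09, 1.45 to 3.06) and 57 and 43 at the second (1.74, 1.15 to 2.65). Position 28532 had 76 and 56 reads (1.79, 1.25 to 2.57) in a bin with a ratio of 1.08, and position 35299 had 75 and 55 reads (1.79, 1.25 to 2.59) in a bin with a ratio of 1.05. Single stacks and the bins around them thus gave different ratios.

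The highest minus-strand bin by the mean RPM of both libraries, 14701 to 14800, lay just inside the left border of the spacer body and was lower in S phase. It held 157 reads in S phase against 443 in G1 phase, or 7.14 and 15.3 RPM, with a ratio of 0.466 (0.386 to 0.560). It led the minus strand in G1 phase, whereas in S phase the bins 21301 to 21400 (187 reads), 22801 to 22900 (165) and 20701 to 20800 (164) were higher. Position 14731 held 45 and 123 of these reads (0.481, 0.334 to 0.682) and position 14726 held 40 and 73 (0.721, 0.477 to 1.07). The next minus-strand bins by level were 20701 to 20800, with 164 and 303 reads (0.712, 0.585 to 0.864), and 21301 to 21400, with 187 and 268 reads (a ratio of 0.918). Both lie in the segment that was poorest in plus-strand reads.

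The border bins of the spacer body were well below its leading bins. At the left border the plus strand had 39 reads in S phase against 74 in G1 phase in its first bin, next to 11 and 9 in the bin just outside, and the minus strand 29 and 51 next to 7 and 17. At the right border the plus strand had 38 and 36 reads in the bin 41901 to 42000 and 32 and 40 in the bin outside it, and the minus strand 7 and 10 next to 24 and 28. The first bins inside the left border were near the median bin of their strand, 43.5 reads in S phase against 60 in G1 phase on the plus and 29 against 48 on the minus strand, and the bins just outside were lower.

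A bin was called when it held at least 50 reads in a library and its ratio was at least 2 or at most 0.5, which is a rule of size and not a test. Of 314 bins that met the minimum, 3 were higher and 23 lower in S phase, or 0.955% and 7.32%, against 3.84% and 8.1% of 469 bins on all of chrR. The same rule gave 9.68% higher and 9.68% lower among 155 chrR bins outside the spacer body, and 23% higher and 2.36% lower among 3052 autosomal bins. These autosomal bins are unusually dense places and not a matched background. In S phase the median 1 Mb window held 0.356 RPM per kb, against 44.0 in the spacer body. The share of lower bins in the spacer body was near that of all chrR, a set that includes the spacer bins. It was below the 9.68% outside the spacer body. The share of higher bins was below both. The minimum of 50 reads is 2.27 RPM in S phase but 1.73 RPM in the deeper G1-phase library, so it admits bins that are high in G1 phase more readily than bins that are high in S phase. With 2.27 RPM required in either library, a rule chosen after seeing the data, 246 bins remained, of which 3 were higher and 16 lower, or 1.22% and 6.50%, against 4.80% and 6.67% of 375 bins on all of chrR. Over these 246 bins the ratio had a median of 0.861, with 156 below 1 and 90 above.

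The higher bins were few and close to the size set for a call. They were 19201 to 19300 on the plus strand, with 51 and 28 reads (2.40, 1.48 to 3.95), and on the minus strand 17201 to 17300, with 87 and 55 reads (2.08, 1.47 to 2.97), and 20901 to 21000, with 111 and 72 reads (2.03, 1.49 to 2.77). Just below the threshold lay the plus-strand bin 35401 to 35500, with 61 and 41 reads (1.96, 1.30 to 2.98).

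Of the 23 lower bins, 20 met the minimum through the G1-phase library alone, and they held between 9 and 157 reads in S phase against 53 to 443 in G1 phase. Among them, 1 was in the densest 54 bins of the S-phase library and 4 in those of the G1-phase library. After 14701 to 14800 the lower bin with the most G1-phase reads was 39101 to 39200 on the plus strand. It had 79 reads in S phase against 228 in G1 phase (0.456, 0.348 to 0.591) and was named here after its value was seen. The lowest ratio was that of the minus-strand bin 20101 to 20200, with 9 reads in S phase against 56 in G1 phase (0.211, 0.0919 to 0.431). It was followed on the same strand by 29801 to 29900, with 15 and 85 reads (0.232, 0.124 to 0.405), and 24301 to 24400, with 14 and 71 reads (0.259, 0.135 to 0.464). On the plus strand the lowest was 17701 to 17800, with 25 and 107 reads (0.307, 0.190 to 0.479), which lies in the 1 kb segment with the lowest ratio.

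At the bins 22301 to 22400 and 22401 to 22500 the strands of 1 place gave different ratios. Their plus strands were among the 12 highest bins and gave ratios of 1.23 and 0.906, while their minus strands had 21 and 87 reads (0.317) and 26 and 97 reads (0.353).

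**Figure D4:**
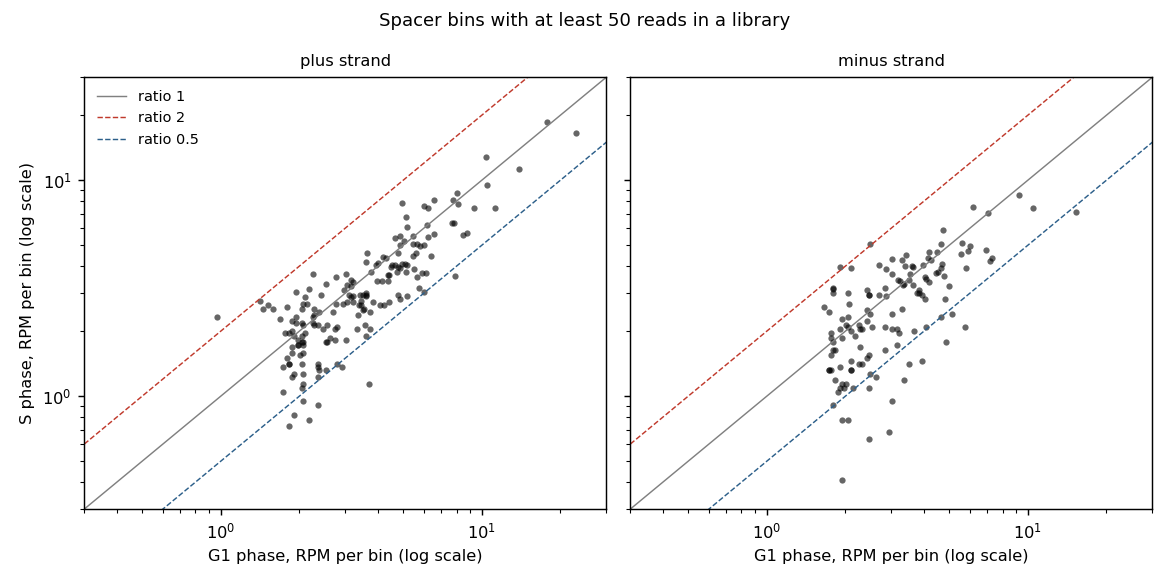
RPM of spacer bins that reached 50 reads in either library, S phase (vertical) against G1 phase (horizontal) on log axes, for the plus strand (180 bins) and the minus strand (134 bins). Lines mark ratios of 1, 2 and 0.5. Most points lie between the outer lines and below the line of ratio 1, with 23 at or below the line of 0.5.

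Many bins carried reads of mainly 1 strand, and part of them did so in both libraries. Of 216 bins with at least 50 reads of both strands together in each library, 36 had at least 80% of their reads on the same strand in both, 28 on the plus and 8 on the minus strand, and 0 were on opposite strands. A further 37 passed this share in 1 library and not in the other, which makes 64 in S phase against 45 in G1 phase. Bins hold fewer reads in the S-phase library, and with fewer reads a bin passes 80% more readily by counting alone. The share that passed in both libraries was not counted for chrR or autosomes, so the 36 bins have no background. Among all bins with 50 or more reads in the library concerned, 22.7% were on the plus and 6.94% on the minus strand in S phase, and 16.3% and 4.78% in G1 phase. On all of chrR these shares were 22% and 8.33% in S phase against 18.4% and 5.44% in G1 phase, and on autosomes 22.3% and 22.3% in S phase against 23.1% and 22.8% in G1 phase. The spacer body supplied 216 of the 336 chrR bins in S phase and 251 of the 386 in G1 phase. Near shares are therefore largely built in, and the shares outside the spacer body were not counted. The minus-strand shares of the spacer body in both libraries and its plus-strand share in G1 phase were below those of autosomes. On autosomes only unusually dense bins reach 50 reads, so these sets of bins are unlike. Bins on 1 strand were a feature of the quiescent library too.

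Some of these bins faced each other. The bin 24501 to 24600 had 12 plus-strand and 103 minus-strand reads in S phase against 25 and 170 in G1 phase, and its right neighbour 24601 to 24700 had 109 plus-strand and 9 minus-strand reads in S phase against 167 and 22 in G1 phase. The bins 20301 to 20400 (19 plus-strand and 77 minus-strand reads in S phase against 28 and 118 in G1 phase) and 20401 to 20500 (72 and 2 in S phase against 88 and 1 in G1 phase) had the same form. Minus-strand reads to the left and plus-strand reads to the right is the layout of a break that left a pair of ends. Read-free stretches coincided with it on both strands at these pairs, and what gave rise to the layout was not tested. The plus strand held no read between 24521 and 24595, and the minus strand none between 24596 and 24677. At the other pair the plus strand held none between 20346 and 20416, and the minus strand none between 20430 and 20503.

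Such read-free stretches tended to lie further right on the minus strand. Stretches of at least 60 positions without a read in both libraries numbered 23 on the plus and 17 on the minus strand, or 6.56% and 5.20% of the positions. At the same positions the strands shared 13.7% of the minus-strand stretches, whereas with the minus strand read 75 bp further right they shared 73.1%, the highest value between −200 and 200 bp. Of the stretches, 14 on each strand had a partner at this distance, with starts 32 to 84 bp apart (median 72.5). The longest stretch ran between 34585 and 34727 on the minus strand (143 bp), and the plus strand had one between 34510 and 34649 (140 bp). The minus-strand bin with no reads lies inside the minus-strand stretch.

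Of the 36 bins on 1 strand in both libraries, 12 overlapped such a stretch of the poorer strand by at least 20 bp, against 7 of the other 180 bins. An overlap removes reads of that strand by construction, and its part in the strand balance was not tested further. The leading plus-strand bins 17301 to 17400, 22001 to 22100 and 33101 to 33200 had 0 bp of overlap. Their reads were 363 plus-strand and 19 minus-strand in S phase against 662 and 23 in G1 phase at the first, 407 and 23 in S phase against 516 and 54 in G1 phase at the second, and 248 and 18 in S phase against 400 and 30 in G1 phase at the third.

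**Figure D5:**
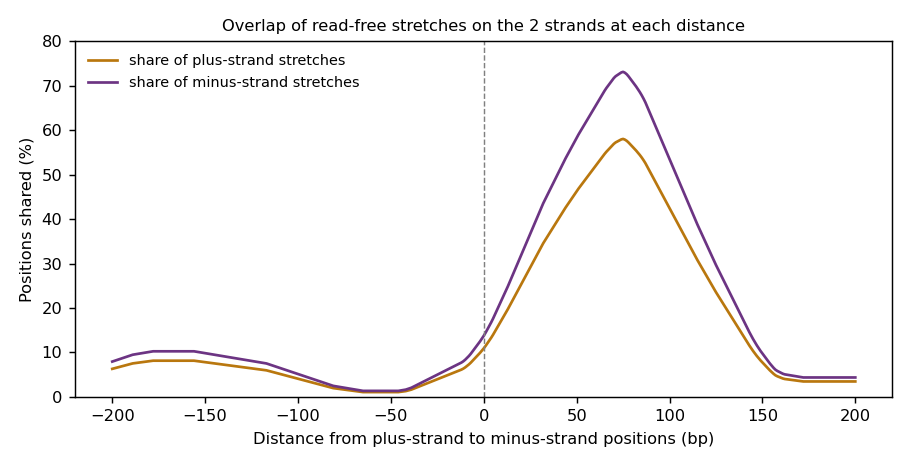
Share of positions in read-free stretches of 1 strand that coincide with a stretch of the other strand, in percent, when minus-strand positions are read at each distance in bp to the right of plus-strand positions. The curves peak at 75 bp, at 58.0% of the plus-strand and 73.1% of the minus-strand stretch positions, against 10.9% and 13.7% at 0 bp.

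At single-base resolution the libraries shared a minority of their covered positions but about equal parts of their reads. Of 54800 strand positions 14.6% were covered in S phase against 15.8% in G1 phase. The 3356 positions covered in both made up 41.8% of those in S phase and 38.8% of those in G1 phase, and carried 54.3% and 52.1% of the reads. Positions with a single read made up 31.6% of the covered positions in S phase against 21.9% in G1 phase. Stacks of at least 20 reads stood at 53 positions in S phase against 176 in G1 phase, of which 39 were the same, counts that also reflect the deeper G1-phase library. The 10 highest positions held 2.60% of spacer reads in S phase against 1.99% in G1 phase.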

How the data were processed

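Break ends mapped by END-seq were analysed in an S-phase library (activated cells) and a G1-phase library (quiescent cells), 1 of each. The authors deposited 1 track per library and strand, 4 in all, named per the file headers for its phase and strand. The deposited values are raw counts, whole numbers of read ends at each base. The submitters' processing notes name mm10, Bowtie 1.1.2, SAMtools 1.11 and bedtools. Not given in the sources used here: their settings, how duplicates and reads matching several places were treated, and the origin of chrR.

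Sums were made in Python 3.11.15 (pandas 2.3.3, numpy 2.4.6), intervals with scipy 1.17.1 and plots with matplotlib 3.10.9. The call rule and intervals were tested on simulated bins of independent Poisson counts with large planted changes. These bins held no stacked reads, so that test does not cover stacking or bins near the call threshold. The S-phase library totalled 21997695 reads and the G1-phase library 28933109; 3 reads are 0.136 and 0.104 RPM. The bins, segments and settings were chosen with earlier results of these data known. Named are the 12 highest bins, the 8 highest and 8 lowest ratios among bins with at least 50 reads (with examples of these given), the 10 highest positions, extreme 1 kb segments, read-free stretches of at least 100 bp and the border bins; other bins and stretches were chosen after their values were seen. Alternatives covered scaling, stacks, bin size, thresholds and borders.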

Additional observations from a re-analysis of the deposited data

How the results depend on the processing

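The ratio of the spacer body stayed below 1, on both strands together and on each, under all 6 alternatives tried. Together it was 0.882 scaled to chrR and 0.901 with each position counted once, and the minus strand stood at 0.916 when counted once. The difference in plus-strand share turned to −0.718 points with each position counted once (95% interval −2.22 to 0.789). Against the rest of chrR the ratio was 0.860 counted once, 0.818 with stacks capped, and 0.895 without the terminator segment, an alternative chosen after seeing the data. Of the main 3 higher and 23 lower bins, there were 16 and 81 at a fold of 1.5, 0 and 5 at a fold of 3, 0 and 11 of 251 in 200 bp bins, 2 and 34 of 251 in 50 bp bins, 1 and 8 of 134 with at least 100 reads, 1 and 8 on the plus strand alone, and 15 lower bins on the minus strand alone. With at least 20 reads 43 of 488 were lower. With each position counted once there were 0 and 0, but only 1 bin reached the minimum, so this says nothing of stability. The 36 bins on 1 strand became 73 at a share of 70%, 11 at 90%, 18 of 103 (17.5%, against 16.7% of 216) with at least 100 reads and 18 of 213 with each position counted once and at least 20 positions, alternatives also chosen after seeing the data. Of 112 values of the 28 named bins under 4 alternatives, 17 lay outside the interval of the main value, 15 with each position counted once and 2 with stacks capped, and 6 crossed 1. Of these, plus-strand 22301 to 22400 stood at 0.933 capped, plus-strand 28501 to 28600 at 0.877 capped and 0.972 counted once, and, counted once, plus-strand 22401 to 22500 at 1.07, minus-strand 20701 to 20800 at 1.18 and minus-strand 21301 to 21400 at 1.13. Of 12 called bins among them 8 lost the call counted once (plus-strand 19201 to 19300 stood at 1.19) and 1 capped (minus-strand 14701 to 14800, at 0.536), and no called bin crossed 1. With 1 library per group no spread between samples is known, and depth limits single bins, whose median is 36 reads (S phase) or 55 (G1 phase). No paired analysis was possible because each group has 1 library and no result comes from a test.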
